A study of Mus musculus with 40 samples.

Results

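The 39 genes described here belong to the TRIM (tripartite motif) family. They were chosen by name and level: the gene symbol begins with Trim and a number, pseudogenes were left out, and the mean over the 40 libraries was at least 1 CPM (counts scaled to a common library total). Of 68 such symbols among the 57010 genes in the table, 29 lay below that minimum, 13 of them with no count at all. The members nearest to the minimum were Trim45 with a mean of 1.1 CPM and Trim62 with 1.23 CPM, and just outside it lay Trim46 with 0.37 CPM and Trim69 with 0.25 CPM. Trim30b is a member only through the LPS-treated libraries, since its mean before LPS was 0.558 CPM in WT and 0.546 CPM in KO. Its rise after LPS is therefore partly fixed by the rule and is no support in the counts below.

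RNA came from macrophages grown out of mouse bone marrow in L929-conditioned medium. Every mouse carried a floxed Otulin gene on both alleles (Otulin FL/FL). WT mice had no Cre, and KO mice had 1 copy of a LysM-Cre transgene, which deletes floxed sequence in myeloid cells and need not reach every cell. OTULIN cleaves linear ubiquitin chains. Cells of both genotypes were taken before treatment (0 h) or 3, 6, 12 and 24 h after 500 ng/ml of LPS from Salmonella minnesota, with 4 biological replicates in each of 10 groups. The labels used here give neither age nor sex.

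Most TRIM proteins have a RING domain, 1 or more B-boxes and a coiled coil, and most act as ubiquitin E3 ligases. Several feed into or hold back the sensing of viral nucleic acid and of LPS, and a number are themselves induced by type I interferon, which macrophages release after LPS. Others work far from immunity, on chromatin, microtubules or muscle proteins.

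Library totals ran from 3615155 to 6829303 counts. The macrophage genes Csf1r (408 to 623 CPM) and Cd68 (462 to 682 CPM) were high in all 40 libraries, while Cd79a of B cells had no count in 39. Ighm, from the same list of B cell markers, was detected in every library, at 0.386 to 40.2 CPM. Otulin did not follow the genotype labels in 1 direction. It was below every WT library in KO at 3 h (31.3 to 33.4 against 36.3 to 47.4 CPM) and 6 h (28.9 to 33.4 against 35.6 to 42.2 CPM). It overlapped at 0 h (means of 35.8 CPM in KO and 41.0 CPM in WT) and 12 h (27.5 to 36.6 and 30.2 to 34.4 CPM), and was above every WT library in KO at 24 h (45.1 to 51.6 against 27.6 to 37.0 CPM). The deleted exons are not given in the labels, so a 3′ tag does not check the deletion, and KO and WT here are the labels' names. Lyz2, the gene that carries the LysM-Cre insertion, had a lower mean in KO at each time, with separate ranges at 3, 6 and 24 h (1883 to 2115 against 2473 to 3587 CPM at 24 h). All libraries of KO replicate 3 and WT replicate 4 had at most 2.24 CPM of Xist, against 226 CPM or more in every other library. Each library is a culture of many cells, so fewer cells with a transcript and less transcript per cell cannot be told apart.

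Short stretches upstream of or around the transcription start are shown first, because 8 of the 14 members with a window that were higher in WT at 6 h held a common motif there. RefSeq promoter windows (GRCm38.p6, 250 bases before to 50 after a start) were matched to 30 of the 39 members, with 40 windows. They were searched on both strands for GAAA, any pair of bases and GAAA, the core of the interferon-stimulated response element, the DNA element bound by the interferon-activated factor ISGF3 and by IRF proteins. Besides those 8, of the 10 members that were lower 1 held a match, and of the 4 that were not called and the 2 that were not tested none did. Over all 27025 genes in the table of windows, 3.99% held a match in any window. Of the 8 higher members, Trim5, Trim12a, Trim12c, Trim30a, Trim30d and Trim34a are related genes of the same cluster on chromosome 7. The 8 are therefore not independent cases to set against that share. The stretches of the 9 members are printed 5′ to 3′ on the gene's own strand, with the match, or its reverse complement, in capitals:
Trim5: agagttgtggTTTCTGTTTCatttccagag
Trim12a: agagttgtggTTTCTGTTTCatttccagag
Trim12c: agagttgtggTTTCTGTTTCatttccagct
Trim30a: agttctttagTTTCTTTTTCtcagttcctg
Trim30d: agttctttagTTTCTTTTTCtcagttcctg
Trim34a: tggtttggagTTTCAGTTTCttttctctgc
Trim21: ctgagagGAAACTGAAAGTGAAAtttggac
Trim26: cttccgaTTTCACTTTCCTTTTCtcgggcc
Trim2: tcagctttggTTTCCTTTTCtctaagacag

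Trim5 and Trim12a were identical over all 30 of these bases, and Trim12c matched them at 28. Trim30a and Trim30d were also identical to each other over 30 bases. Trim34a matched Trim5 at 18 bases, and Trim21 and Trim26, each with 2 overlapping matches, matched every other stretch shown at 10 bases or fewer. Stretches were compared position by position as printed, without shifting or reversing them. Trim21 is printed in the other orientation, and the double matches begin at another position than the single ones. These low counts therefore do not tell whether the elements are alike. On chromosome 7, minus strand, lay the stretches of Trim5 (chr7:104288136-104288165), Trim12a (chr7:104315466-104315495), Trim12c (chr7:104353359-104353388), Trim30a (chr7:104465210-104465239), Trim30d (chr7:104507871-104507900) and Trim21 (chr7:102565447-102565476). Trim34a (chr7:104244457-104244486) lay on the plus strand of the same chromosome, Trim26 on the plus strand of chromosome 17 (chr17:36836979-36837008) and Trim2, the lower member, on the minus strand of chromosome 3 (chr3:84212791-84212820). The match began 49 bases before the start in Trim5, 29 before it in Trim12c, 36 before it in Trim30a and 41 before it in Trim30d. It began at base 11 of the transcript in Trim12a and Trim34a, at base 14 in Trim21 and at base 29 in Trim2, and 160 bases before the start in Trim26. A second window of Trim30a also held a match, at base 3 (chr7:104446104-104446133). Its stretch, not printed, was identical to the printed Trim30a stretch at 26 of 30 bases. Of the windows of Trim2, numbers 1 to 4 held no match and number 5 held the one printed. These letters are a description of the windows. The windows of Trim25, Trim6, Trim13, Trim56, Trim30b and Trim30c held no match to GAAA, any pair of bases and GAAA, which says only that these letters are not in those 300 bases. A second motif, TTC, any 3 bases and GAA, was searched in the same windows. It was in 1 of the 14 higher members, 0 of the 10 lower, 0 of the 4 not called and 1 of the 2 not tested. Over all genes in the table of windows 9.55% held it.

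LPS moved TRIM transcripts in both directions. In WT, 15 of the 37 members tested were higher and 15 lower at 3 h, beside 26.6% higher and 28% lower among all 12151 genes (edgeR quasi-likelihood test, Benjamini-Hochberg adjusted p under 0.05). At 6 h 16 were higher and 14 lower (all genes 31% and 37.1%), at 12 h 18 and 12 (32.3% and 35.9%), and at 24 h 22 and 12 (34.5% and 35.4%). Trim45 and Trim62 were too low to test. Each time is set against the same 0 h libraries. The median change of the members was close to 0 at 6 h (-0.01 on the log2 scale, all genes -0.09), while the median size of the change was 1.79 against 0.59 for all genes.

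KO cells gave 15 members higher and 13 lower at 3 h (all genes 22.9% and 25.7%), 16 and 13 at 6 h (28.7% and 36%), 17 and 12 at 12 h (30.7% and 34%) and 18 and 12 at 24 h (32.8% and 33%). Read side by side, the genotypes were called in the same direction for 16 higher and 13 lower members at 6 h, and no member was called in opposite directions at any time. Scaling by library totals alone shifted the median of all genes in WT by -0.36 at 3 h, -0.51 at 6 h, -0.40 at 12 h and -0.30 at 24 h, and in KO by -0.34, -0.55, -0.42 and -0.30. With it the split of members in WT at 6 h became 16 higher and 21 lower, in KO 15 and 20, and in WT at 24 h 18 and 13. Changes smaller than about that shift therefore depend on the scaling, and directions below are relative to TMM, edgeR's scaling to a common centre of the genes. Changes are given as log2 fold changes ± SE.

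**Figure D1:**
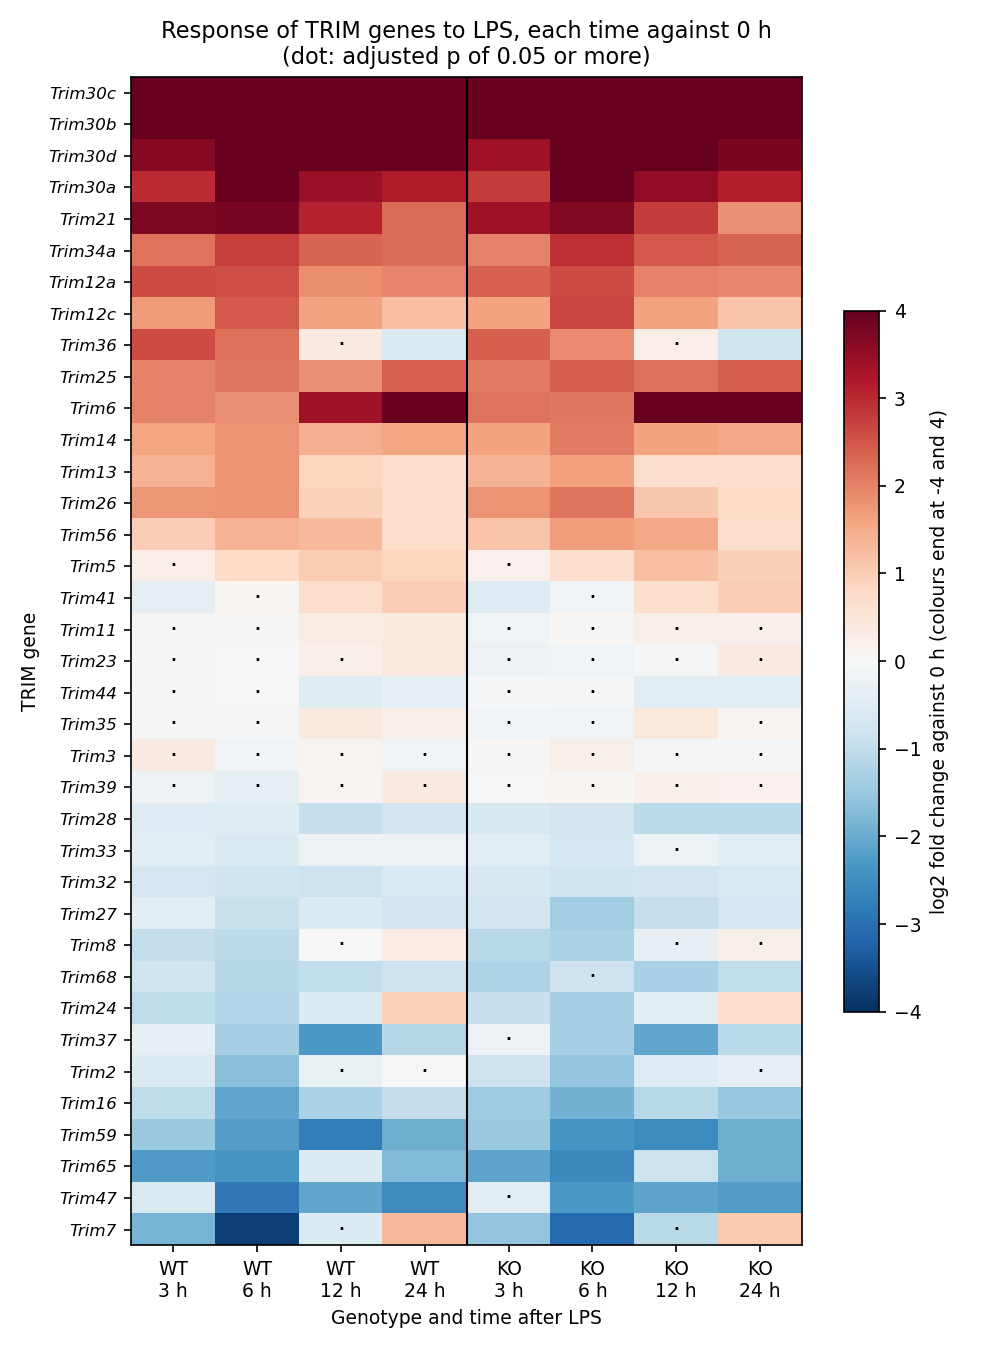
Log2 fold change against 0 h (colour; red higher, blue lower, colours end at -4 and 4) of the 37 TRIM genes tested, in rows ordered by the change in WT at 6 h, at 4 times in WT (left) and KO (right). Dots mark adjusted p of 0.05 or more; the upper 16 rows were higher in WT at 6 h and the lowest 14 were lower, and no gene was called in opposite directions in WT and KO at the same time.

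The members took 0.148% ± 0.0054 (SD, n = 4) of all counts in WT before LPS and 0.455% ± 0.013 at 6 h, with every library at 6 h above every library at 0 h. In KO the share went from 0.148% ± 0.0040 to 0.472% ± 0.019. Much of this came from 1 gene cluster. The genes of the TRIM5/30 cluster on chromosome 7, in the order Trim6, Trim34a, Trim5, Trim12a, Trim34b, Trim12c, Trim30b, Trim30c, Trim30a and Trim30d, are mouse relatives of primate TRIM5, which blocks retroviral capsids. Trim34b had 2 counts over the 40 libraries and is no member. The other 9 held 21.5% of the members' counts in WT at 0 h (19.2% to 22.5% in single libraries) and 71.8% at 6 h (71.0% to 72.7%). By 24 h they held 56.8%, and in KO the values at 0, 6 and 24 h were 20.4%, 70.4% and 54.7%.

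**Figure D2:**
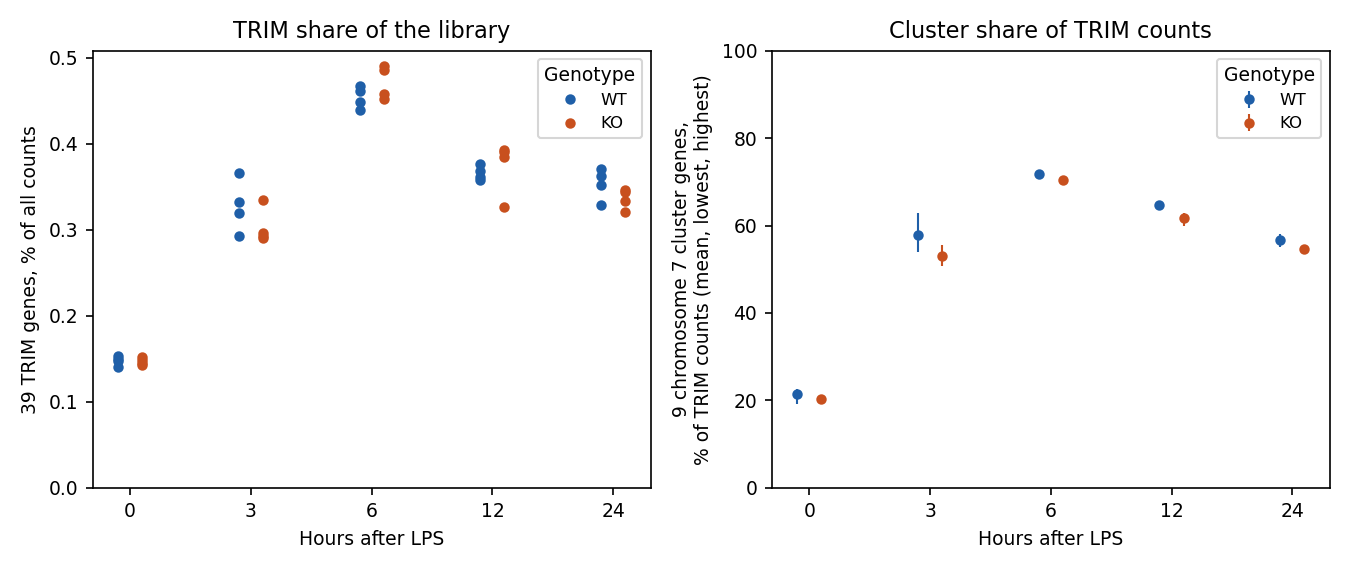
Left, the 39 TRIM genes as a percent of all counts in each library (points) by hours after LPS in WT and KO; right, the 9 cluster genes as a percent of the TRIM counts (point: mean of 4; bar: lowest to highest). Both shares are highest at 6 h in both genotypes, at 0.455% and 71.8% in WT.

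In the cluster, 8 of 9 genes were higher in WT at 3 h and all 9 at 6, 12 and 24 h, and the same counts held in KO. Trim30b, a member only through its levels after LPS, is among them, and the rule favoured its rise. No count or median was taken without it. The median change in WT was 2.60 at 3 h, 2.77 at 6 h, 3.39 at 12 h and 3.18 at 24 h on the log2 scale, where the medians of all genes lay between -0.09 and -0.02. A tag counts a transcript once whatever its length, so levels of different genes are set side by side in CPM without a correction for length. Whether tags of different genes were captured and assigned equally well was not tested.

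Trim30a, whose protein restrains TLR-driven NF-κB signalling by removing TAB2 and TAB3, became the most abundant TRIM transcript. The 4 WT libraries had 98.1, 112, 119.6 and 116 CPM at 0 h, 769.8, 834, 872 and 1089 CPM at 3 h and 1714, 1879, 1832 and 1686 CPM at 6 h. They came down to 1313, 1217, 1222 and 1126 CPM at 12 h and 972, 1110.5, 1002 and 957 CPM at 24 h. In KO the libraries had 107, 104, 115 and 119.6 CPM at 0 h and 2024, 1787, 2000.5 and 1962 CPM at 6 h. No treated library overlapped an untreated one in either genotype. The log2 fold change at 6 h was 3.99 ± 0.099 in WT (adjusted p = 6.02e-22) and 4.11 ± 0.11 in KO (adjusted p = 8.97e-21), both from edgeR.

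Trim30b, Trim30c and Trim30d, tandem copies beside Trim30a, had the 3 highest fold changes of the members tested at 6 h in both genotypes. For Trim30b the rule for members favoured such a rise. Trim30c, nearly silent before LPS at 1.36, 1.32, 3.25 and 2.65 CPM, reached 529, 548, 581 and 579 CPM at 6 h in WT and 631, 616, 656 and 630.3 CPM in KO. It was then the member that came down furthest from its peak within the cluster, to 83.2, 134, 114 and 109 CPM at 24 h in WT. Its log2 fold change was 8.02 ± 0.29 at 6 h and 5.68 ± 0.30 at 24 h in WT, and -2.34 ± 0.19 from 6 to 24 h (adjusted p = 5.38e-09, edgeR). Trim30b rose from 0.136, 0.822, 0.649 and 0.623 CPM to 59.0, 77.8, 74.6 and 75.0 CPM at 6 h, a log2 fold change of 6.98 ± 0.28, on a level below 1 CPM in every library at 0 h. It held 52.5, 81.8, 68.5 and 60.8 CPM at 12 h, so its 6 h and 12 h values overlap, and 35.8, 47.2, 41.6 and 28.5 CPM at 24 h. Trim30d had 24.4, 27.3, 29.7 and 31.8 CPM at 0 h, 635, 636, 711 and 790.5 CPM at 6 h and 376, 464, 417 and 481 CPM at 24 h, log2 fold changes of 4.61 ± 0.14 and 3.94 ± 0.13. In the last 500 bases of the transcripts, where tags fall, Trim30c shared 0.443% of its 50-base words with Trim30d, so the copies are largely distinguishable there.

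Trim34a, which lies beside Trim6 and encodes another TRIM5 relative, rose from 20.3, 24.3, 21.4 and 27.6 CPM to 145, 161, 157 and 177 CPM at 6 h in WT, a log2 fold change of 2.77 ± 0.11. At 24 h it still stood at 98.6, 105, 109 and 132 CPM, and no library after LPS overlapped the 0 h range. Trim12a and Trim12c, the mouse copies closest to Trim5, rose by 2.59 ± 0.13 and 2.46 ± 0.075 at 6 h, with means of 67.9 and 318 CPM. Trim5 changed least, by 0.79 ± 0.12 at 6 h and 1.02 ± 0.11 at 12 h, and did not pass the test at 3 h (0.28 ± 0.12, adjusted p = 0.0533, edgeR). Trim5 and Trim12c share 7.76% of their 50-base words near the 3′ end, so part of their counts may be exchanged between them.

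Trim6 kept a different time from its neighbours. Its protein builds unanchored ubiquitin chains that activate the kinase IKKε in interferon signalling. WT libraries had 3.13, 3.62, 2.6 and 2.65 CPM at 0 h, 12.4, 10.9, 8.22 and 11.2 CPM at 6 h and 49.1, 53.2, 64.3 and 60.2 CPM at 24 h. KO libraries had 1.79, 2.72, 1.67 and 3.24 CPM, 8.97, 13.4, 11.2 and 8.54 CPM and 55.0, 77.7, 53.8 and 41.0 CPM at those times. The 3 ranges do not overlap within either genotype. From 6 to 24 h it rose by 2.4 ± 0.14 in WT (adjusted p = 1.22e-13) and 2.46 ± 0.21 in KO (edgeR). Over that interval 7 of the 9 cluster genes fell and Trim6 was the 1 that rose, in both genotypes, with Trim5 not called. Among all genes tested over that interval 31.7% were higher and 31.2% lower in WT, and 31.9% and 29.3% in KO.

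**Figure D3:**
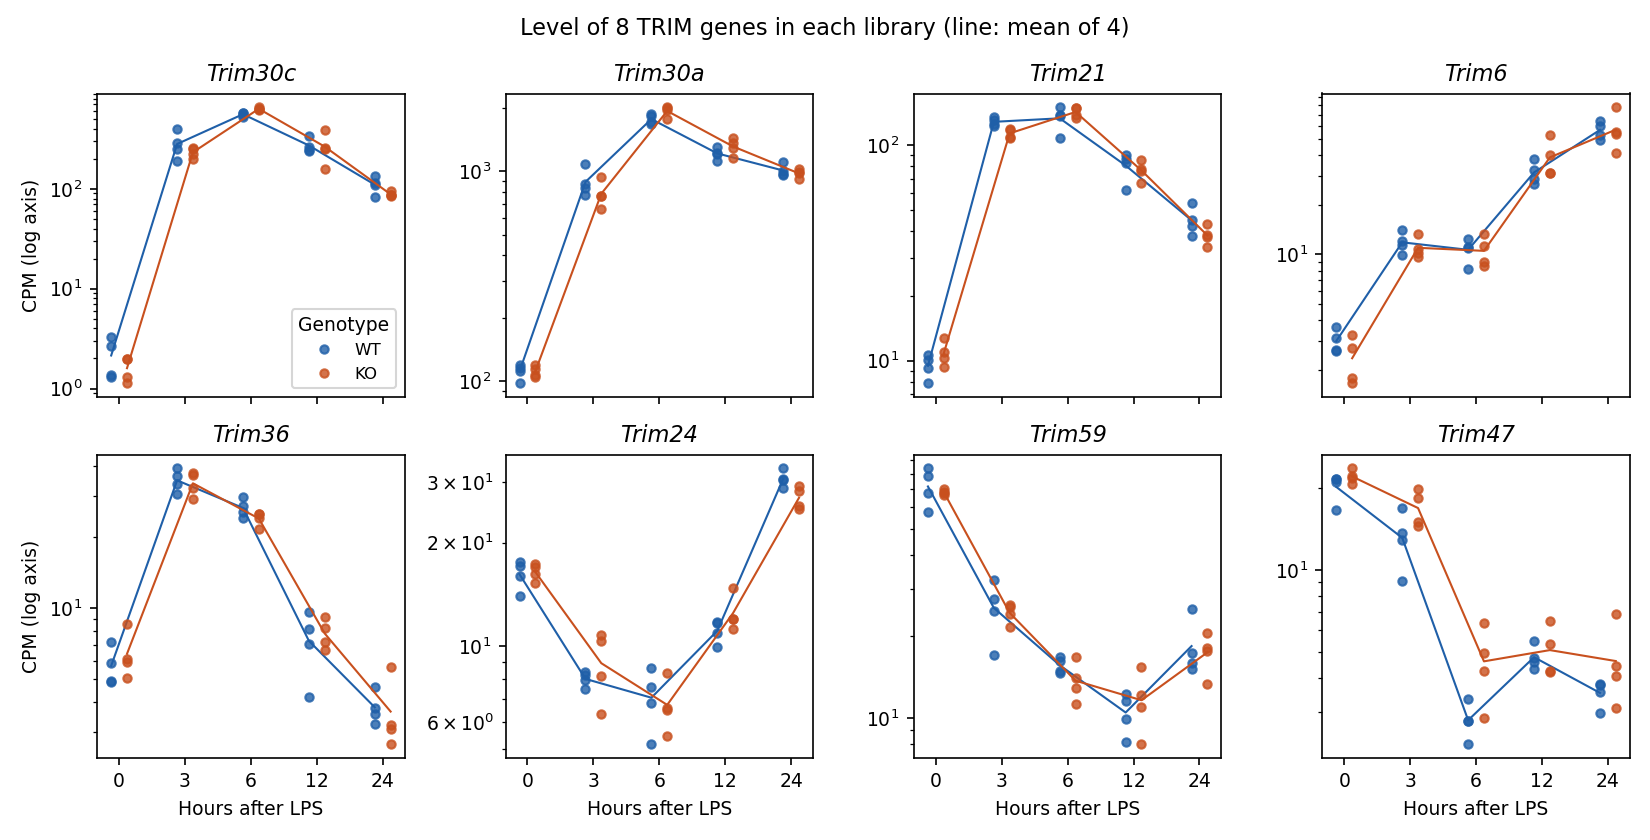
CPM (log axis) of 8 TRIM genes in each library by hours after LPS (0, 3, 6, 12, 24, not to scale), with WT in blue and KO in orange and lines through the means of 4. The highest mean of Trim30c, Trim30a and Trim21 is at 6 h in both genotypes, though the 3 h and 6 h points of Trim21 overlap in WT. That of Trim6 is at 24 h and that of Trim36 at 3 h. Trim24 dips and at 24 h lies above its 0 h level, and the means of Trim59 and Trim47 stay below those of 0 h.

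Among the 6 tested TRIM genes with roles in antiviral sensing, 5 were higher and 1 was lower at each of the 4 times in WT and in KO. Of all genes 26.6% to 34.5% were higher over these times in WT and 22.9% to 32.8% in KO. Trim21 encodes a cytosolic antibody receptor with E3 ligase activity. It had 10.6, 7.89, 9.25 and 10.1 CPM at 0 h in WT, 125, 131, 122 and 135 CPM at 3 h and 138, 137, 150.1 and 108 CPM at 6 h. It then fell to 90.4, 86.4, 83.1 and 62.3 CPM at 12 h and 45.1, 54.1, 42.4 and 37.9 CPM at 24 h. KO libraries had 12.7, 10.3, 11.0 and 9.37 CPM at 0 h, 117, 108, 109.8 and 119.6 CPM at 3 h, 134, 138, 149.6 and 149.7 CPM at 6 h and 43.1, 33.9, 37.4 and 38.3 CPM at 24 h. The 3 h and 6 h ranges overlapped in WT and were separate in KO, and at 24 h all libraries were still above those of 0 h. Log2 fold changes in WT were 3.75 ± 0.13 at 3 h, 3.8 ± 0.13 at 6 h and 2.23 ± 0.14 at 24 h.

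Trim25 encodes an E3 ligase that ubiquitinates the RNA sensor RIG-I and can also conjugate the ubiquitin-like ISG15. It was among the 3 most abundant members before LPS (118, 121, 118 and 127 CPM in WT). It rose by 2.1 ± 0.068 at 6 h and 2.37 ± 0.069 at 24 h in WT (adjusted p = 1.39e-19 and 2.2e-20, edgeR), to 621, 628, 649 and 614 CPM at 24 h. Unlike Trim21 and Trim30a, whose 24 h libraries all lay below those of 6 h, its WT libraries at 24 h all lay above those of 6 h. In KO the Trim25 ranges at 6 h (638 to 762 CPM) and 24 h (605 to 806 CPM) overlapped. Trim26 and Trim56, E3 ligases of interferon-β and DNA-sensing pathways, had their highest WT means at 6 h with 76.8 ± 9.46 and 188 ± 32.4 CPM (SD, n = 4), from 22.1 ± 0.636 and 70.9 ± 5.8 CPM at 0 h. The 6 h range overlapped that of 3 h for Trim26 (75.0 ± 9.81 CPM) and that of 12 h for Trim56 (173 ± 16.9 CPM). Trim14, an adaptor at the mitochondrial protein MAVS, rose by 1.8 ± 0.30 from a mean of 2.16 CPM. It lies opposite the gene Nans, which had 6526 counts to its 986, and the handling of strand is not given in the sources used here. Trim65, a ligase for the RNA sensor MDA5, went the other way. Its WT libraries had 13.9, 13.3, 8.93 and 12.9 CPM at 0 h, 2.05, 2.64, 2.79 and 2.67 CPM at 3 h and 2.78, 3.31, 0.609 and 2.53 CPM at 6 h, with 7.8, 10.0, 7.18 and 8.94 CPM at 12 h and 3.08, 4, 3.87 and 3.22 CPM at 24 h. It fell by 2.36 ± 0.24 on the log2 scale at 6 h and had partly come back at 12 h, when 2 WT libraries lay inside the 0 h range. Trim65 and Trim47 overlap on the same strand in the annotation, so their tags may be exchanged.

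Genes that work with these ligases were followed too, where 26.6% to 34.5% of all genes were higher in WT and 22.9% to 32.8% in KO. All 5 genes of ISG15 conjugation were higher at each time in both genotypes, with a WT median of 4.05 at 3 h and 4.96 at 6 h. Isg15 itself rose by 6.07 ± 0.20, its activating enzyme Uba7 by 3.15 ± 0.11, the conjugating enzyme Ube2l6 by 3.05 ± 0.12 and the mouse ligase Herc6 by 4.96 ± 0.11 at 6 h in WT. Of 12 genes of RNA and DNA sensing, 10 were higher and 2 lower at 3 and 6 h in WT. The RNA sensors Ddx58, Ifih1 and Dhx58 rose by 4.92 ± 0.12, 5.68 ± 0.10 and 3.87 ± 0.15 at 6 h, whereas Mavs was lower (-0.51 ± 0.13), as was Irf3 (-0.54 ± 0.14), named after its value was seen. All 12 genes of interferon signalling were higher at each time. Ifnb1 had no count in any 0 h library and a mean of 4.97 CPM at 3 h and 1.71 CPM at 6 h in WT, while the receptor genes Ifnar1 and Ifnar2 and the kinase gene Jak1 rose by 1.62 ± 0.084, 1.34 ± 0.08 and 0.81 ± 0.079 at 6 h.

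TRIM proteins that carry other symbols were followed as well. Pml, the scaffold of nuclear PML bodies, rose by 3.45 ± 0.12 and Mefv, which encodes the inflammasome sensor pyrin, by 5.47 ± 0.18 at 6 h in WT. Mid1, a microtubule-bound ligase, was at 1.03 ± 0.72 (adjusted p = 0.214, edgeR), and Mid2 was too low to test.

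The 7 tested TRIM genes known as modifiers of TLR and NF-κB signalling did not move as a group. In WT 1 was higher and 3 were lower at 3, 6 and 12 h, and 3 were higher and 3 lower at 24 h. In KO 1 was higher at each time, with 3 lower at 3, 12 and 24 h and 2 at 6 h. Over these times 26.6% to 34.5% of all genes were higher and 28% to 37.1% lower in WT. In KO 22.9% to 32.8% were higher and 25.7% to 36% lower. Counts of this size among 7 genes are not read as a trait of the group. The gene that was higher throughout was Trim13, an E3 ligase of the endoplasmic reticulum, at 1.8 ± 0.15 at 6 h. It shares 10.2% of its 50-base words near the 3′ end with the gene Gm9359 and lies opposite Dleu2, so its value is less certain. Trim27, a repressor of NF-κB and interferon signalling, fell to a mean of 16.0 CPM at 6 h from 29.6 CPM (-0.89 ± 0.11). Trim8, which modifies TAK1 and SOCS1, was lower at 3 h (-0.95 ± 0.16) and 6 h (-1.04 ± 0.17). At 24 h its change in WT was 0.34 ± 0.15 (adjusted p = 0.0473, edgeR), and in KO 0.24 ± 0.23 (adjusted p = 0.359). Trim68 had between 2.45 and 4.93 CPM at 0 h in WT and 1.71, 1.02, 1.52 and 2.53 CPM at 6 h. Its log2 fold change was -1.15 ± 0.32 in WT (adjusted p = 0.0025), and in KO it missed the threshold at 6 h (-0.84 ± 0.40, adjusted p = 0.0715, edgeR), on few counts. Trim44 was lower at 12 h (-0.49 ± 0.10 in WT), and Trim23, which joins a TRIM motif to an ARF-like GTPase domain, was higher in WT at 24 h (0.42 ± 0.17, adjusted p = 0.0339, edgeR). Trim39 did not pass the test at any time in either genotype.

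The TIF1 genes, co-regulators of chromatin with a bromodomain, were lower at 3 and 6 h in both genotypes, 3 of 3 each time. Among all genes 37.1% were lower at 6 h in WT and 36% in KO. Trim28, the co-repressor that KRAB zinc-finger proteins recruit to silence retroelements, went from 50.7, 45.2, 41.1 and 44.4 CPM to 22.3, 24.7, 24.6 and 24.8 CPM at 12 h in WT, with no overlap. Its log2 fold change was -0.92 ± 0.092 in WT and -1.05 ± 0.13 in KO. Trim33, a ligase for SMAD4, fell by 0.56 ± 0.10 at 6 h in WT, and at 12 h its change was -0.22 ± 0.096 in WT (adjusted p = 0.0476) and -0.24 ± 0.11 in KO (adjusted p = 0.0558, edgeR). Trim24, a co-regulator of nuclear receptors, turned. It had 14.0, 17.1, 17.5 and 16.0 CPM at 0 h, 6.84, 8.65, 5.18 and 7.6 CPM at 6 h and 30.6, 32.9, 30.5 and 29.0 CPM at 24 h in WT, and 15.3, 17.3, 16.2 and 16.9, then 6.51, 8.36, 5.45 and 6.61, then 25.1, 29.2, 28.3 and 25.5 CPM in KO. Each of the 3 times is separate from the others in both genotypes. The log2 fold change against 0 h was -1.19 ± 0.14 at 6 h and 0.93 ± 0.11 at 24 h in WT, and -1.31 ± 0.17 and 0.72 ± 0.14 in KO. Of 7 partners of TRIM28 in silencing, 1 was higher and 3 were lower at 6 h in WT, beside 31% and 37.1% of all genes. The methyltransferase gene Setdb1 fell by 0.92 ± 0.17, and the heterochromatin genes Cbx5 and Cbx3 by 1.74 ± 0.11 and 1.17 ± 0.087, while Cbx1 was at -0.08 ± 0.071 (adjusted p = 0.311, edgeR) and the higher gene was the deacetylase gene Hdac1 (1.34 ± 0.069), named after its value was seen.

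Trim2 and Trim32, ligases with an NHL domain known from neurons and muscle, were lower at 3 and 6 h in both genotypes, and the third tested, Trim3, was not called at any time. Trim2 went from 16.9, 15.1, 13.8 and 12.5 CPM to 4.49, 3.05, 6.39 and 4.82 CPM at 6 h in WT and was back at 14.2, 16.0, 15.2 and 13.1 CPM at 24 h, so its 24 h and 0 h ranges overlap. The 6 h log2 fold change was -1.66 ± 0.20 in WT and -1.58 ± 0.19 in KO. Trim36, a microtubule-binding member, was an early and brief responder. WT means were 5.7 CPM at 0 h, 34.9 CPM at 3 h, 26.6 CPM at 6 h, 7.28 CPM at 12 h and 3.8 CPM at 24 h. It was higher at 3 h (2.6 ± 0.16) and below its starting level at 24 h (-0.56 ± 0.21 in WT, adjusted p = 0.0215, and -0.80 ± 0.21 in KO, adjusted p = 0.00195, edgeR).

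The remaining tested members, 8 in all, held most of the deep falls. At 6 h in WT 5 of them were lower and none higher, with a median of -1.70. Among all genes 37.1% were lower and 31% higher, with a median of -0.09. Trim59, a membrane-bound TRIM protein, had 83.5, 78.1, 67.5 and 57.5 CPM at 0 h in WT and was then among the 4 most abundant members. It had 27.6, 32.5, 24.9 and 17.1 CPM at 3 h, 16.2, 16.8, 14.6 and 15.0 CPM at 6 h, 11.6, 8.13, 12.2 and 9.93 CPM at 12 h and 17.3, 16.0, 25.2 and 15.2 CPM at 24 h. The 0 h range stands clear of all later ones, and the log2 fold change was -2.76 ± 0.18 at 12 h in WT and -2.56 ± 0.15 in KO. Trim47, of which the 3 h and 0 h ranges overlap, had 16.9, 12.9, 13.7 and 9.08 CPM at 3 h in WT, from 21.6, 21.5, 16.6 and 21.0 CPM at 0 h, and only then dropped to 2.78, 2.29, 3.35 and 2.79 CPM at 6 h and 3.79, 3.78, 3.56 and 2.99 CPM at 24 h. The change at 6 h was -2.86 ± 0.19 in WT and -2.29 ± 0.21 in KO. Trim37, a ligase that marks peroxisomal proteins and limits centrosome assembly, had its low point later still. WT libraries had 30.1, 32.6, 27.3 and 28.2 CPM at 0 h, 16.2, 9.92, 13.4 and 7.86 CPM at 6 h, 8.34, 5.42, 5.06 and 5.71 CPM at 12 h and 13.8, 12.2, 13.3 and 14.9 CPM at 24 h, with a log2 fold change of -2.29 ± 0.17 at 12 h.

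Trim16, which responds to damaged lysosomes, fell from 8.71, 8.72, 6.33 and 6.7 CPM to 1.5, 2.03, 2.74 and 1.01 CPM at 6 h in WT (-2.09 ± 0.31) and stood at 5.22, 4.89, 2.63 and 3.22 CPM at 24 h (-0.97 ± 0.26). Trim7, known as a partner of glycogenin, was low throughout. WT libraries had 1.9, 2.63, 2.11 and 1.56 CPM at 0 h, 0.214, 0, 0 and 0.253 CPM at 6 h and 4.74, 4.67, 4.79 and 6.2 CPM at 24 h. The 6 h libraries hold 2 counts in WT and 3 in KO, so the 0 h level was 16.1 times that at 6 h in WT, with a 95% counting interval of 4.25 to 136.7, and 9.65 times in KO, with an interval of 3.12 to 48.3 (exact Clopper-Pearson on the counts, counting error only). At 24 h it was above 0 h in WT (1.3 ± 0.28, adjusted p = 0.000208) and in KO (1.06 ± 0.46, adjusted p = 0.0464, edgeR). Trim41 was lower at 3 h and higher at 12 and 24 h (0.99 ± 0.097 in WT), and it lies opposite Rack1, whose 84269 counts compare with its 9479. Trim35, the most abundant member before LPS at 187 ± 9.75 CPM (SD, n = 4) in WT, was higher at 12 h by 0.39 ± 0.068. With library totals alone that value turned to -0.01, and the 12 h value of Trim11 (0.31 ± 0.10) to -0.09.

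The second comparison set KO against WT cells at each time. Before LPS no member of 37 tested was called between KO and WT (0% of 11734 genes), none of 35 at 3 h (0.689% of 11035), none of 35 at 12 h (0.0464% of 10783) and none of 37 at 24 h (0.0809% of 11122). At 6 h 1 of 33 was called, Trim25, where 1.01% of 10518 genes were. By unadjusted p under 0.05 the members numbered 1 at 0 h, 7 at 3 h, 5 at 6 h, 2 at 12 h and 3 at 24 h, beside 7.67%, 11.7%, 12%, 7.72% and 7.46% of all genes. DESeq2 called no member at 0, 3 and 24 h, and Trim25 at 6 and 12 h.

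Trim25 was higher in KO at 6 h. Its 4 WT libraries had 486, 575, 511 and 509 CPM and its 4 KO libraries 706, 685, 762 and 638 CPM. At 3 h they had 457, 497, 458 and 492 CPM in WT and 571, 564, 550.4 and 509 CPM in KO, and at 12 h 429, 467, 437 and 391 CPM and 617, 634, 607 and 533 CPM. At these 3 times every KO library stood above every WT library, a pattern shown by 3.28%, 5.07% and 3.28% of all genes tested at 3, 6 and 12 h. At 0 h (109.6, 132, 142 and 132 CPM in KO) and at 24 h (676, 806, 605 and 669 CPM in KO) the genotypes overlapped. The log2 difference was 0.08 ± 0.083 at 0 h, 0.20 ± 0.069 at 3 h, 0.41 ± 0.074 at 6 h, 0.45 ± 0.094 at 12 h and 0.13 ± 0.084 at 24 h, with adjusted p of 0.801, 0.224, 0.0121, 0.119 and 0.762 (edgeR).

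**Figure D4:**
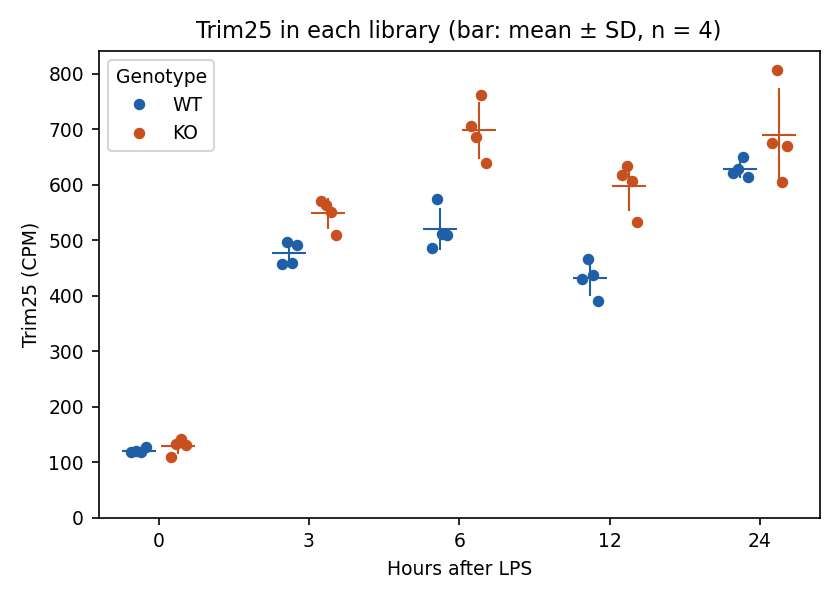
Trim25 in CPM in each library (points) by hours after LPS in WT (blue) and KO (orange), with mean ± SD of 4. The KO points lie above all WT points at 3, 6 and 12 h (638 to 762 against 486 to 575 CPM at 6 h) and overlap them at 0 and 24 h.

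The 6 h call was lost without KO replicate 1 (adjusted p = 0.0574), without KO replicate 3 (0.0557) and without the 2 replicates of low Xist, KO 3 and WT 4 (0.0512), with differences of 0.40, 0.37 and 0.36. At 12 h the call was gained in a fit of all 40 libraries (adjusted p = 0.000726), with DESeq2 (0.00174), without a filter on low counts (0.0101) and without KO replicate 4 (0.0418). The fit of all 40 libraries, like the LPS fits without a replicate block, takes the times of a replicate number as independent. Within a genotype, same-numbered libraries of different times correlated above 0.1 in 17 of 40 pairs in WT and 21 of 40 in KO. The change in the LPS response itself was 0.33 ± 0.12 at 6 h (adjusted p = 0.957) and 0.38 ± 0.12 at 12 h (adjusted p = 1) as an edgeR interaction term, and no member was called in an interaction at any time (0%, 0%, 0% and 0.00818% of all genes at 3, 6, 12 and 24 h). Members with an unadjusted p under 0.05 for it numbered 1, 4, 1 and 2, and DESeq2 called none either.

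Marker sums of neutrophils stood apart between the genotypes at 3, 6 and 24 h, those of monocytes at 3 h and those of macrophages at 6 and 24 h. The 8 neutrophil markers summed to 56.9 to 71.5 CPM in WT and 30.4 to 43.4 CPM in KO at 3 h, and to 59.6 to 79.7 and 30.4 to 56.8 CPM at 6 h, and they overlapped at 12 h with 42.3 to 56.0 and 32.6 to 52.9 CPM. At 24 h, when Trim25 overlapped, they were separate again with 32.9 to 45.1 CPM in WT and 18.4 to 27.2 CPM in KO, and at 0 h they overlapped with 27.9 to 37.7 and 16.0 to 32.6 CPM. S100a8 and S100a9 made up most of it, and Retnlg had no count in 38 of 40 libraries. The 5 monocyte markers summed to 120.9 to 147 CPM in WT and 80.9 to 90.9 CPM in KO at 3 h, and overlapped at 6 h with 345 to 438 and 384 to 413 CPM. The 8 macrophage markers, Lyz2 among them, summed to 6650.28 to 7085.79 CPM in WT and 6217.47 to 6650.07 CPM in KO at 6 h, ranges that nearly touch. At 24 h these sums were 5923 to 7468 CPM in WT and 5459 to 5819 CPM in KO. Lyz2 alone, the gene with the Cre insertion, had means of 3107 CPM in WT and 2316 CPM in KO at 6 h. At 24 h its means were 2979 and 1982 CPM. The macrophage sums were not taken without Lyz2, so their separation is not read as a difference in macrophage content. The part of any of these markers in the Trim25 result was not tested.

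At 0, 3 and 24 h the member with the smallest p was another gene, and at 12 h it was Trim25. Trim2 was at 0.50 ± 0.14 in KO against WT at 0 h (adjusted p = 0.341, edgeR), with 18.1, 24.6, 18.0 and 22.2 CPM in KO, each above the WT range. Without a filter on low counts this passed (adjusted p = 0.0333). Trim34a was at -0.33 ± 0.099 at 3 h (adjusted p = 0.146; 0.00927 without the filter), with 90.2, 78.1, 88.7 and 74.7 CPM in KO and 89.3, 107, 97.8 and 125 CPM in WT, ranges that overlap. Trim30c was at -0.33 ± 0.12 at 24 h (adjusted p = 0.471, edgeR). Besides Trim25, the genotypes did not overlap for Trim2 and Trim26 at 0 h, Trim21 at 3 h, Trim26, Trim30c and Trim5 at 6 h, Trim65 at 12 h and Trim27, Trim65 and Trim12c at 24 h, beside 5.02%, 6.24%, 7.81%, 5.03% and 4.41% of all genes. These genes were listed for this pattern after their values were seen.

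Around Trim25, the ISG15 genes gave 0 of 5 called between genotypes at 6 h, where 1.01% of all genes were called. Isg15 was at 0.17 ± 0.081 and Herc6 at 0.01 ± 0.079. Of the 12 sensing genes 1 was higher in KO, the MDA5 gene Ifih1 (0.37 ± 0.074, adjusted p = 0.0217), while Ddx58, the RIG-I gene, was at 0.03 ± 0.069 (adjusted p = 0.902, edgeR). Of 11 interferon signalling genes 2 were higher in KO, the feedback inhibitor Socs1 (0.50 ± 0.089) and the transcription factor gene Irf8 (0.47 ± 0.09), both named after their values were seen. For the cluster genes the median difference was 0.02 at 6 h, and Trim30a was at 0.11 ± 0.067 and Trim21 at 0.08 ± 0.094. The cluster median was -0.13 at 0 h with 0 of 8 genes above 0, and -0.23 at 3 h with 0 of 9. It was 0.06 at 12 h with 5 of 9 above 0, and -0.07 at 24 h with 0 of 9. No cluster gene was called at any time, and the medians of all genes lay between -0.0081 and 0.0057. The cluster genes were measured in the same libraries, so the counts above 0 are not separate observations of a genotype difference. At 3 h WT replicate 4 had the highest WT values of Trim30a (1089 CPM), Trim30c (398 CPM) and Trim30d (459 CPM). It had the lowest WT value of Trim6 (9.88 CPM).

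**Figure D5:**
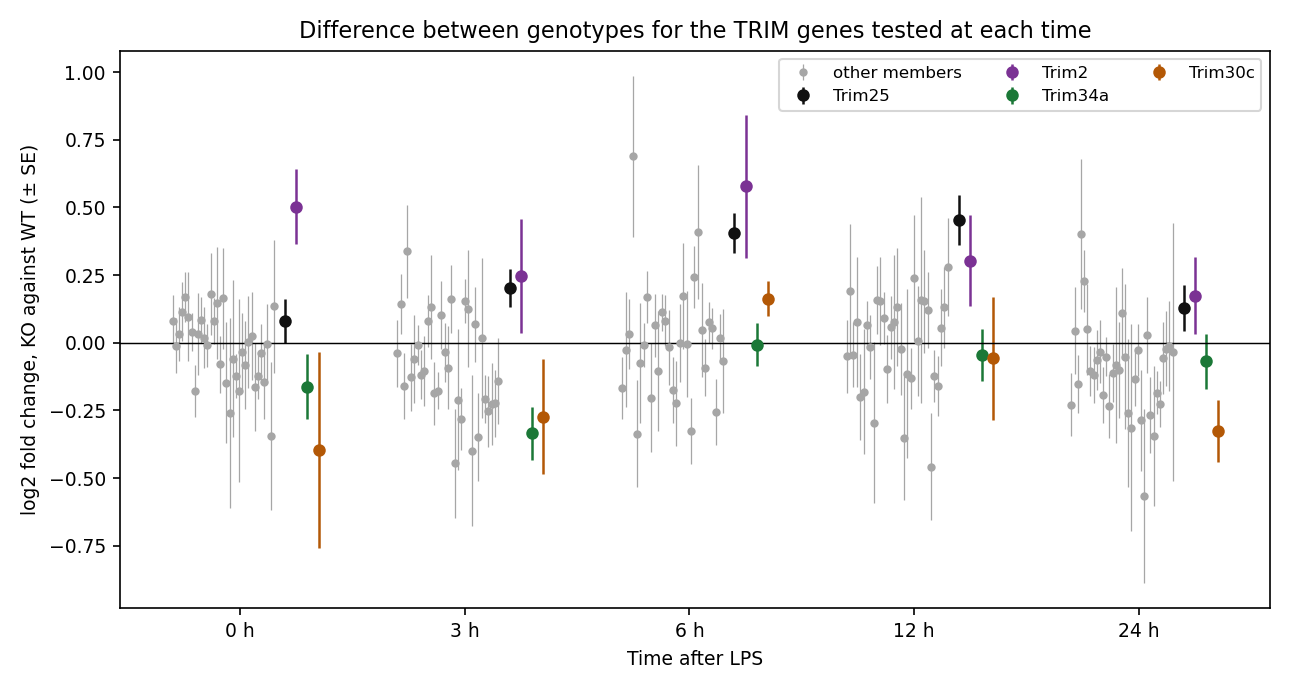
Log2 fold change of KO against WT (± SE) for each TRIM gene tested at 0, 3, 6, 12 and 24 h, with Trim25, Trim2, Trim34a and Trim30c in colour. Trim25 stands at 0.41 at 6 h and 0.45 at 12 h, and most members lie within 0.25 of 0 at every time.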

How the data were processed

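The authors deposited expected counts per gene from 3′ tag libraries (QuantSeq FWD, per the labels' protocols) of the 40 cultures, and all values were whole numbers. Per the submitters' processing notes, the build was GRCm39 and the tools included RSEM 1.3.3 and STAR 2.7.10a, besides UMI-tools 1.1.2, cutadapt 3.7 and FastQC 0.11.9; strand handling is not given in the sources used here. Symbols came from GENCODE vM21, for 52029 of 57010 identifiers.

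The whole table was fitted with edgeR 4.0.16 in R 4.3.3 (TMM, filterByExpr with a minimum count of 10, robust quasi-likelihood F-test, prior count 0.125), two-sided, with Benjamini-Hochberg adjustment over all genes tested and a threshold of 0.05. Genotypes were compared within a time (8 libraries), LPS times within a genotype (20 libraries), and responses by an interaction term (16 libraries). The SE is the size of the log2 fold change divided by the root of F. CPM are counts over library totals scaled by TMM, and the membership rule used unscaled totals. The scripts were tested on simulated data. Members and gene lists were chosen with earlier results of these data known. All members may be named; full values are given for Trim25, Trim30a, Trim21, members called between genotypes, and the 6 largest rises and 6 largest falls called in WT at 6 h and at 24 h; at times with no member called between genotypes the smallest p is given. From other lists the first 4 measured genes are named, and any other is said to be named after its value was seen. Alternatives were DESeq2 1.42.0, RLE scaling, no filter, a replicate block, 1 fit of all 40 libraries, leaving out each replicate or the 2 replicates of low Xist, and, added after seeing the data, library totals without TMM.

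Sequences are from RefSeq (GRCm38.p6) and 3′ ends from vM21. That build differs from the table's, so no other coordinates are given. The 60 replicate pairs differed beyond counting noise (chi-square per degree of freedom 2.34 to 18.9).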

Additional observations from a re-analysis of the deposited data

Results flagged for a closer look

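In 3 of 160 groups of 4 libraries examined for the 16 members given in full, 1 library stood apart from the other 3 by Dixon's test at the 95% level; chance alone flags about 1 in 20 groups. Trim30c in KO replicate 4 at 24 h had 94.2 CPM where the others had 85.3 to 86.6 CPM. Trim47 in WT replicate 3 at 0 h had 16.6 CPM where the others had 21.0 to 21.6 CPM. Trim7 in WT replicate 4 at 24 h had 6.20 CPM where the others had 4.67 to 4.79 CPM. The 3 flags fall in 3 different libraries.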

How the results depend on the processing

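Between genotypes the count of members called was 0 at 0 h and 3 h and became 1 at each without a filter on low counts. At 6 h it was 1 and became 0 without the 2 replicates of low Xist, and leaving out single replicates gave 0 to 1. At 12 h it was 0 and became 1 in 1 fit of all 40 libraries, with DESeq2 and without a filter, and leaving out single replicates gave 0 to 1. The counts of members called in LPS comparisons stayed within 1.5 times under every alternative run for them, with 27 to 31 in WT at 24 h, the widest range when replicates were left out. Of 289 LPS calls of single members, 254 kept direction and side of the threshold with DESeq2, RLE scaling, no filter, the replicate block, library totals and each replicate left out; the fit of all 40 libraries and the one without the replicates of low Xist were run for genotype comparisons only. Library totals alone reversed Trim11 in WT at 12 h (-0.0918) and Trim35 in WT at 12 h (-0.0140) and 24 h (-0.0944) and in KO at 12 h (-0.0126), and ended 11 other calls. Calls were also lost 59 times with a replicate left out, 8 times with DESeq2, 8 without a filter, 4 with RLE scaling and 1 time with the replicate block, most often for Trim33, Trim68 and Trim23. With library totals, the members in WT split into 15 higher and 19 lower at 3 h and into 16 and 15 at 12 h. The KO members split into 15 higher and 19 lower at 3 h, 15 against 16 at 12 h and 15 against 14 at 24 h. Among all genes called in WT at 6 h the share that was higher went from 45.6% to 21.6%.

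The labels give the same replicate numbers to both genotypes without saying that they mark a shared animal or day. Same-numbered KO and WT libraries did not deviate together (20 pairs, correlations from -0.193 to 0.0951), so they were not treated as paired; within a genotype 17 of 40 pairs in WT and 21 of 40 in KO exceeded 0.1. With the replicate number as a block the member count was 1 at 6 h (Trim25 at 0.41, adjusted p = 0.0329, edgeR) and 0 at the other times between genotypes, 31, 30, 29 and 34 for LPS in WT at 3, 6, 12 and 24 h, and 29, 29, 30 and 32 in KO. Members below about 5 CPM, such as Trim7 and Trim68, rest on few counts per library.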
